A study of Mus musculus with 35 samples.

Results

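Collagen genes were examined in mRNA-seq libraries of the mouse hippocampus after pilocarpine-induced status epilepticus (SE), a prolonged seizure. The members are the 44 genes, of 43629 identifiers in the count table, whose mouse symbol is Col, a number, the letter a and a number. They were divided by known structure into 11 fibrillar, 8 basement membrane and 25 other collagens. All mice were C57BL/6J animals of either sex, 6 to 7 weeks old, and all received scopolamine, which blocks the peripheral effects of pilocarpine. SE mice then received pilocarpine (a first dose of 350 mg/kg, followed by smaller doses until seizures were severe), whereas control mice received vehicle. The hippocampus was sampled from 3 SE and 2 control mice at 1 h and from 2 SE and 3 control mice at 8 h. At 36 h and at 120 h it was sampled from 3 SE mice each, and both times share the same 3 control mice. These controls are labelled for both times by source and as t0 in their library titles, so their sampling time is not settled. Each library was taken as 1 mouse, and p-values measure only the spread between these libraries.

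Collagens are extracellular matrix proteins built from chains that wind into triple helices. Fibrillar collagens assemble into the fibrils of the meninges and vessel walls, whereas collagen IV chains form the network of the basement membrane around brain capillaries, made by endothelial cells, pericytes and astrocytes. The other collagens include collagens that coat fibrils, transmembrane collagens of neurons, the short-chain collagen VIII and collagen VI, which forms beaded microfilaments. In the mature brain most collagen belongs to vessels, meninges and choroid plexus.

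Libraries held 8503816 to 28465548 counts, of which collagens made up 0.0527 to 0.0979%. Levels below are CPM, counts scaled to library size by the trimmed mean of M values. The 10 markers of hippocampal neurons summed to 5535 to 9839 CPM, with none at 0 in any library. Several libraries stood apart by transcripts of the choroid plexus, an epithelium next to the hippocampus. Its 20 markers summed to 9201 and 7697 CPM in SE replicates 1 and 2 of 36 h and 8878 CPM in SE replicate 3 of 120 h. In the other 3 SE libraries of those times they summed to 209.8, 243 and 328 CPM, against 271, 376 and 319 CPM in the controls, and 2 of the 20 were at 0 counts in SE replicate 3 of 36 h. At 1 h every library was high, with 9684, 6358 and 7097 CPM in SE mice and 5832 and 4674 CPM in controls. At 8 h the SE libraries had 5228 and 5218 CPM, against 1073, 6075 and 1918 CPM in controls. By Xist and the Y-linked Ddx3y, 0 of 3 SE libraries were of female type at 36 h and 1 of 3 at 120 h, against 2 of 3 of their controls. In whole tissue, fewer cells of a type and less RNA per cell cannot be told apart.

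The promoters of the genes on which the results turn are shown here, because Col4a1 and Col4a2, the chains of the common collagen IV network, lie head to head. Windows are from RefSeq (GRCm38.p6) and hold 250 bases before and 50 bases from the annotated start. Capitals mark the 78 bases that both windows share, read on opposite strands. The annotated starts are 21 bases apart, so that both transcripts hold the same 22 bases, and reads over these bases cannot be given to either gene without strand.
Col4a1, minus strand, chr8:11312777-11313076: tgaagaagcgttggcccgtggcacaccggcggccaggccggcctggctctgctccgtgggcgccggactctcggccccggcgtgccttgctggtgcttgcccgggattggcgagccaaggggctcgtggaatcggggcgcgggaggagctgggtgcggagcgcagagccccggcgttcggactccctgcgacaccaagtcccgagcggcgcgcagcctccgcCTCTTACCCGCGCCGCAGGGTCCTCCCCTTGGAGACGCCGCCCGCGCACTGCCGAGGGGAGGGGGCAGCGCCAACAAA
Col4a2, plus strand, chr8:11312555-11312854: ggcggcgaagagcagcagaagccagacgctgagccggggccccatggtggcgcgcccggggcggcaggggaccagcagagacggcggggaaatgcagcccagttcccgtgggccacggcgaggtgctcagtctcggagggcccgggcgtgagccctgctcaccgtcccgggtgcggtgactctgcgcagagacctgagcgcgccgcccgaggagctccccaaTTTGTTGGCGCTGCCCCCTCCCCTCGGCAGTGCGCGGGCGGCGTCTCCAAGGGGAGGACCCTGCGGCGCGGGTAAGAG

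Col27a1, a fibrillar collagen known from cartilage, was the collagen past the threshold of the main test, and its promoter is shown for that reason. Capitals mark GGGCGG and its reverse complement CCGCCC, the core letters of a GC box.
Col27a1, plus strand, chr4:63215162-63215461: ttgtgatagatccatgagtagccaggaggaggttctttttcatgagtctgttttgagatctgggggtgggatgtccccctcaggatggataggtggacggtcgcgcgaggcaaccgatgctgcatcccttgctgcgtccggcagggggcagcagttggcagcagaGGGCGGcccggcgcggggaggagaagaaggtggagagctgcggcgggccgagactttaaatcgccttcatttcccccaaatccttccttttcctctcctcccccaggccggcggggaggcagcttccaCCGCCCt

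Windows were matched for 35 of the 44 members, 38 windows in all. GGGCGG was found on either strand in 23 of these 38 windows (60.5%), against 35.7% of all 32841 windows of the same length. CCAAT was found in 34.2% of the member windows and 37.4% of all windows, and TATAAA in 13.2% and 13.6%. In the windows shown above, GGGCGG occurs 1 time for Col4a1, 3 times for Col4a2 and 2 times for Col27a1, and TATAAA does not occur. Both strands were searched, and matches of GGGCGG and CCAAT that share bases were each counted. A match describes the letters only. In the NCBIM37 annotation, Col4a4 and Col4a3 also lie head to head with 71 bases between them, as do Col4a6 and Col4a5 with 1308 bases between them.

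Among the 8 control libraries, the collagen IV chains of the capillary wall had the highest levels per kb of exon. Col4a2 had 14.7 ± 3.01 and Col4a1 10.6 ± 2.25 CPM per kb (SD, n = 8). Of the other collagens, Col6a1, a collagen VI chain, had 9.31 ± 3.89, Col9a3, a chain of the fibril-coating collagen IX, had 8.21 ± 4.59, and Col25a1, a transmembrane collagen of neurons, had 8.18 ± 1.46 CPM per kb. The ranges of these 5 genes over the controls overlapped between neighbours in the order. The highest fibrillar collagen was Col11a2, a collagen XI chain, at 4.80 ± 1.2 CPM per kb. Collagen I, the main fibril of the meninges, was lower, at 1.86 ± 0.636 CPM per kb for Col1a1 and 1.43 ± 0.359 for Col1a2. Col10a1, the collagen of hypertrophic cartilage, was lowest at 0.0274 ± 0.0336 CPM per kb, with 0 counts in 5 of the 19 libraries, where a count of 0 allows up to 0.197 to 0.352 CPM. This limit is set at 3 counts and covers counting error only.

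**Figure D1:**
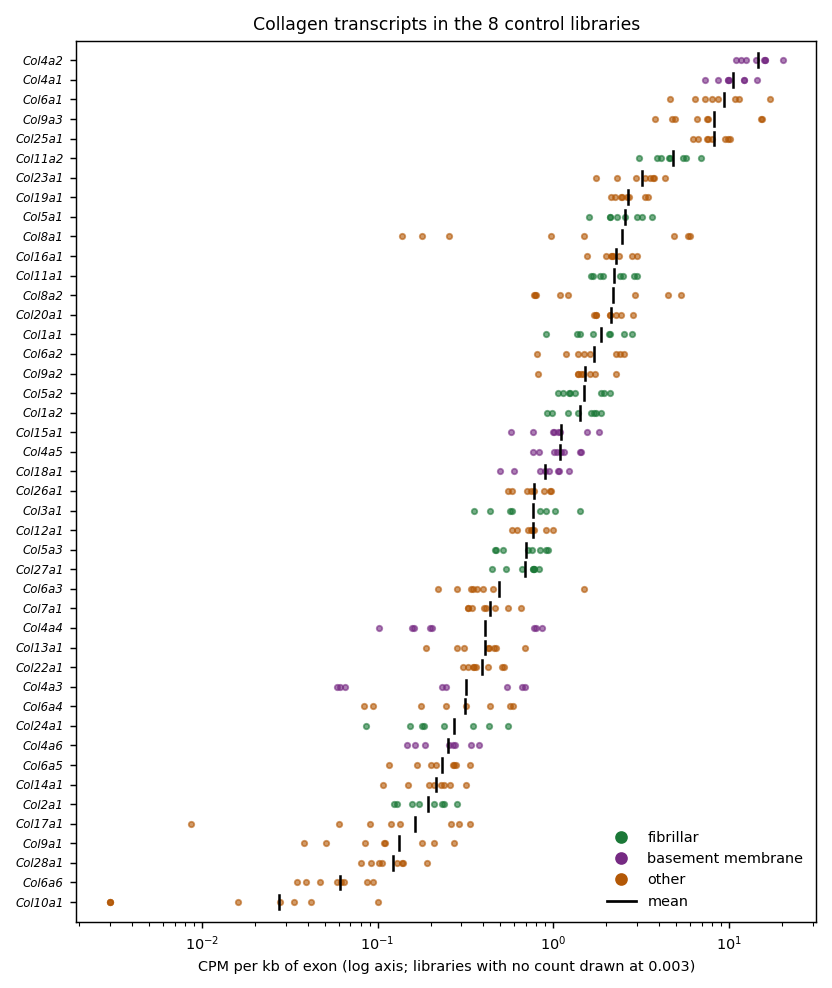
Collagen transcripts in the 8 control libraries, in CPM per kb of exon on a log axis, with 1 point per library and the mean as a bar; libraries with 0 counts are drawn at the lower edge. Col4a2 and Col4a1 lead at means of 14.7 and 10.6 CPM per kb, and Col8a1 spreads over 0.137 to 6.00 CPM per kb among the controls.

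The study asked how hippocampal transcription runs from the onset of SE through the latent period that follows. No collagen passed an adjusted p of 0.05 for SE against control at any of the 4 times by edgeR's quasi-likelihood test, and 1 passed between SE at 120 h and SE at 36 h. Log2 fold changes of collagens lay mostly above 0 at 36 h in all 3 classes. Between SE at 120 h and SE at 36 h they lay mostly below 0.

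At 1 h, 0 of 42 members tested passed, where 0.0799% of all 16264 genes passed higher and 0% lower. The likelihood ratio test and DESeq2 also called 0 members, where 0.332% and 0.314% of all genes were called higher and 0.0922% and 0.0738% lower. At an unadjusted p under 0.05, 6 members were higher and 0 lower, against 2.32% and 2.07% of all genes. SE and control libraries did not overlap for 7 members with higher and 2 with lower values in SE mice, where these shares over all genes were 9.91% and 8.55%. The median log2 fold change was 0.07 over the members and -0.0023 over all genes. It was 0.13 for fibrillar, 0.34 for basement membrane and 0.01 for other collagens, with 26 of 42 members above 0 (61.9%, against 49.5% of all genes).

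At 8 h, 0 of 40 members passed, as did 0% of all 15610 genes in either direction. The likelihood ratio test and DESeq2 called 0 members, but 0.570% and 0.609% of all genes. No member had an unadjusted p under 0.05, where 3.95% of all genes did so higher and 5.52% lower. The groups did not overlap for 7 members with higher and 2 with lower values in SE mice, against 14.6% and 13.4% of all genes. The median log2 fold change was 0.05 over the members and -0.01 over all genes, with 23 of 40 members above 0 (57.5%, against 49.1%). With 1 library left out the median ranged over 0.02 (without control replicate 1) to 0.09 (without control replicate 2). Without both controls low in choroid plexus transcripts, which leaves 1 control library, it was -0.03, with 18 of 42 members above 0. By class the median was -0.07 for fibrillar, 0.18 for basement membrane and 0.05 for other collagens.

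At 36 h, 0 of 42 members passed, where 0.0252% of all 15850 genes passed higher and 0% lower. The likelihood ratio test called 5 members higher (Col27a1, Col8a1, Col9a2, Col1a1 and Col17a1), and DESeq2 called 3 of them (Col27a1, Col8a1 and Col1a1). These tests called 0.732% and 0.562% of all genes higher. At an unadjusted p under 0.05, 14 members were higher and 0 lower, against 5.29% and 2.60% of all genes. The libraries did not overlap for 7 members with higher and 0 with lower values in SE mice, against 5.99% and 8.28% of all genes. The median log2 fold change was 0.49 over the members and 0.01 over all genes. It was 0.33 for fibrillar (9 of 11 above 0), 0.81 for basement membrane (7 of 8) and 0.51 for other collagens (20 of 23), so that 85.7% of members lay above 0, against 51.7% of all genes. With SE replicate 3, low in choroid plexus transcripts, as the only SE library, a fit used here and below for its estimates alone because the SE arm then holds 1 mouse, the median was 0.30 and 30 of 43 members lay above 0. Without that library, 11 members passed, all higher, where 2.50% of all genes passed higher and 0.396% lower.

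At 120 h, 0 of 40 members passed, where 0.0250% of all 15996 genes passed higher and 0.0313% lower. The likelihood ratio test called 0 members and DESeq2 called Col4a1, lower, as it did 0.631% of all genes. At an unadjusted p under 0.05, 1 member was higher and 3 were lower, against 4.54% and 5.06% of all genes. The libraries did not overlap for 0 members with higher and 3 with lower values in SE mice (Col4a1, Col4a2 and Col27a1), against 6.33% and 9.10% of all genes. The median log2 fold change was 0.09 over the members and 0.01 over all genes, with 23 of 40 members above 0 (57.5%, against 53.0%). It was -0.18 for fibrillar, 0.19 for basement membrane and 0.22 for other collagens, and -0.03 over all members without SE replicate 3, the SE library high in choroid plexus transcripts.

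The later SE group was then compared with the earlier one, SE at 120 h with SE at 36 h, where the shared controls cancel. Here 1 of 43 members passed, lower at 120 h, where 0.0616% of all 16239 genes passed higher and 0.0554% lower. The likelihood ratio test and DESeq2 each called 4 members lower (Col27a1, Col1a1, Col4a1 and Col4a2), where they called 0.468% and 0.628% of all genes lower. At an unadjusted p under 0.05, 0 members were higher and 12 lower, against 4.38% and 4.94% of all genes. The libraries did not overlap for 0 members with higher and 9 with lower values at 120 h, against 7.53% and 6.00% of all genes. The median log2 fold change was -0.42 over the members and -0.01 over all genes. It was below 0 for 10 of 11 fibrillar, 8 of 8 basement membrane and 20 of 24 other collagens, so that 11.6% of members lay above 0, against 48.7% of all genes. Without the 3 libraries high in choroid plexus transcripts, which leaves 1 SE mouse at 36 h, the median was -0.28 and 14 of 43 members lay above 0.

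**Figure D2:**
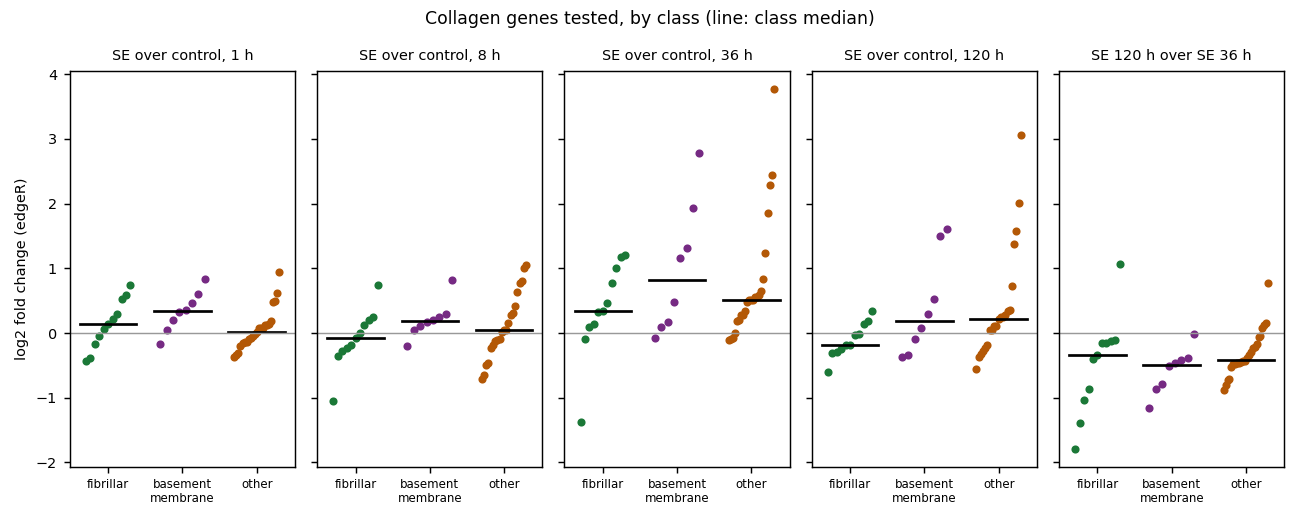
Log2 fold changes of the collagen genes tested, with 1 point per gene, for SE over control at each of the 4 times and for SE at 120 h over SE at 36 h, by class, with the class median as a line. At 36 h the medians are 0.33, 0.81 and 0.51 for fibrillar, basement membrane and other collagens, and for SE at 120 h over SE at 36 h all 3 medians lie below 0.

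Among the basement membrane collagens, Col4a1 and Col4a2 were lower in SE mice at 120 h than in every control. Col4a1 (ENSMUSG00000031502, NCBIM37 chr8:11198423-11312826, minus strand) had 70.5, 58.9 and 73.6 CPM in SE mice at 120 h, against 98.6, 82.7 and 82.7 CPM in controls. Its log2 fold change was -0.37 ± 0.10 (± standard error here and below), with an adjusted p of 0.344 by edgeR's quasi-likelihood test and 0.0433 by DESeq2. Col4a2 (ENSMUSG00000031503, NCBIM37 chr8:11312805-11449287, plus strand) had 95.5, 85.9 and 89.8 CPM in SE mice at 120 h, against 134, 106 and 105 CPM in controls. All 3 SE mice lay below all 3 controls, with a log2 fold change of -0.34 ± 0.09 (adjusted p = 0.349).

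At 36 h the same chains overlapped the controls. Col4a1 had 90.5, 89.1 and 97.6 CPM in SE mice, inside the range of the controls, and a log2 fold change of 0.09 ± 0.09 (adjusted p = 0.841). Col4a2 had 119, 113 and 152 CPM in SE mice at 36 h, overlapping the controls, and a log2 fold change of 0.18 ± 0.13 (adjusted p = 0.786). With sex as a covariate these estimates were -0.07 for Col4a1 and -0.04 for Col4a2. In every library SE at 120 h lay below SE at 36 h, by a log2 fold change of -0.46 ± 0.10 for Col4a1 (adjusted p = 0.132, and 0.00728 by the likelihood ratio test). For Col4a2 it was -0.51 ± 0.12 (adjusted p = 0.167, and 0.0150 by the likelihood ratio test). Without the 3 libraries high in choroid plexus transcripts, the differences were -0.60 for Col4a1 and -0.76 for Col4a2. These estimates rest on SE replicate 3 as the only SE library of 36 h. That library had the lowest sums of all 19 libraries for the vessel cell markers described below, at 199.4 CPM (endothelial) and 187.9 CPM (mural). The part of vessel cells in these estimates was not tested.

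At 1 h and 8 h the adjusted p of this pair ranged over 0.718 to 0.999. Col4a1 had 57.8, 59.6 and 63.6 CPM in SE mice at 1 h, against 50.03 and 67 CPM in controls, and 73.1 and 68.2 CPM in SE mice at 8 h, against 68.1, 58.9 and 67.4 CPM in controls. Col4a2 had 61.6, 74.4 and 70.1 CPM in SE mice at 1 h, against 82.1 and 72.2 CPM in controls, and 77.7 and 85.2 CPM in SE mice at 8 h, against 77.8, 94.6 and 106 CPM in controls. The groups overlapped except for Col4a1 at 8 h, whose lower SE value was next to the highest control. Libraries of 1 h and 8 h carry other name prefixes (G511, G369 and G317) than those of 36 h and 120 h (G545), so that prefix and time cannot be told apart for levels across these times.

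Markers of vessel cells are given beside the 120-h values, and their part in them was not tested. The 15 endothelial markers summed to 286, 281 and 311 CPM in SE mice at 120 h, against 329, 275 and 303 CPM in controls. The 12 mural cell markers (pericytes and smooth muscle) summed to 230.4, 193 and 232 CPM in SE mice, against 309, 223 and 219.7 CPM in controls. None of these 27 markers was at 0 counts in any library, and both sums overlapped between the groups. Of the mural markers, 1 of 11 had a log2 fold change above 0, with a median of -0.32. Of the endothelial markers, 4 of 15 lay above 0, with a median of -0.08. Over all genes, 53.0% lay above 0 at this time. The groups did not overlap for 2 endothelial markers with higher and 2 with lower values in SE mice, against 6.33% and 9.10% of all genes. Cldn5 was 1 of the 2 lower ones. Cldn5, the claudin that seals the tight junctions of brain endothelium, fell in SE mice at 120 h, with 12.8, 12.5 and 12.7 CPM, against 26.9, 21.7 and 21.6 CPM in controls (log2 fold change -0.87 ± 0.11, adjusted p = 0.0461). This call was lost in 10 of 14 alternatives, with any 1 library left out, with the replicate block, with sex or choroid plexus markers as a covariate and with all 19 libraries in 1 fit. The log2 fold change ranged over -0.93 to -0.76 over all 14.

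At 36 h and 120 h the other collagen IV chains were high where choroid plexus transcripts were high. Col4a5 had 11.8, 9.86 and 5.78 CPM in SE mice at 36 h and 5.53, 6.26 and 9.39 CPM in SE mice at 120 h, against 7.71, 5.54 and 6.75 CPM in controls. At 1 h all libraries were high in these transcripts, and the markers were themselves higher in SE mice. Of the 20 markers 19 lay above 0, against 49.5% of all genes, with a median log2 fold change of 0.54. The groups did not overlap for 11 of them, all higher in SE mice, against 9.91% of all genes. At that time Col4a5 had 14.5, 12.1 and 11.8 CPM in SE mice, against 9.47 and 7.38 CPM in controls, without overlap (log2 fold change 0.61 ± 0.21, adjusted p = 0.999). The 8-h groups overlapped, at 7.75 and 8.64 CPM in SE mice, against 7.04, 9.59 and 5.18 CPM in controls. Its partner in some basement membranes, Col4a6, behaved likewise at the later times, at 4.08, 4.33 and 1.37 CPM at 36 h and 1.42, 1.74 and 2.56 CPM at 120 h in SE mice, against 1.48, 1.17 and 1.30 CPM in controls. In both genes the SE mouse of 36 h with low choroid plexus transcripts lay within the control range. Col4a3, a chain of the kidney's filtration barrier, had 7.65, 4.66 and 0.286 CPM in SE mice at 36 h and 0.274, 0.456 and 5.19 CPM in SE mice at 120 h, against 0.610, 0.586 and 0.650 CPM in controls. For Col4a4, its head-to-head neighbour, the values were 7.82, 5.86 and 0.972 CPM at 36 h and 0.986, 1.53 and 8.73 CPM at 120 h in SE mice, against 1.31, 0.847 and 1.70 CPM in controls. In each of these 4 genes the 3 SE libraries high in choroid plexus transcripts had the 3 highest values among the SE mice of 36 h and 120 h, and the part of that tissue was not tested. At 8 h Col4a3 had 5.99 and 5.96 CPM in SE mice, against 2.32, 5.40 and 2.44 CPM in controls, highest in the libraries high in those transcripts. Col4a4 had 1.76 and 5.67 CPM, against 1.34, 7.17 and 1.66 CPM, with SE replicate 1 near the low controls. Col4a6 had 4.58 and 2.17 CPM, against 3.03, 2.14 and 2.74 CPM, and did not follow those transcripts.

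Collagens XV and XVIII are basement membrane collagens with sugar side chains, and the tail of collagen XVIII is cut to endostatin, an inhibitor of vessel growth. Col18a1 had 12.3, 14.8 and 6.52 CPM in SE mice at 36 h and 4.66, 4.68 and 9.39 CPM in SE mice at 120 h, against 7.53, 4.17 and 3.5 CPM in controls. The 36-h groups overlapped (log2 fold change 1.15 ± 0.35, adjusted p = 0.424), and the highest values were again in libraries with high choroid plexus transcripts. The early groups overlapped as well, at 7.03, 7.91 and 8.15 CPM in SE mice at 1 h, against 7.46 and 5.93 CPM in controls, and 10.6 and 6.83 CPM in SE mice at 8 h, against 6.33, 8.66 and 6.64 CPM in controls. Col15a1 ranged over 5.09 to 11.9 CPM over the 9 libraries of the later times, with log2 fold changes of -0.08 at 36 h and -0.09 at 120 h.

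Among the fibrillar collagens, Col27a1 (ENSMUSG00000045672, NCBIM37 chr4:62875038-62996025, plus strand) was higher in every SE mouse at 36 h than in any other library. It had 19.2, 17.3 and 15.7 CPM in SE mice at 36 h and 7.67, 8.46 and 9.65 CPM in SE mice at 120 h, against 10.8, 9.97 and 10.1 CPM in controls. Means were 8.59 ± 1.00 CPM in SE mice at 120 h and 17.4 ± 1.75 CPM in SE mice at 36 h (SD, n = 3 each). Col27a1 fell in SE at 120 h against SE at 36 h, with a log2 fold change of -1.03 ± 0.13 (adjusted p = 0.0123 by edgeR's quasi-likelihood test, 8.89e-07 by the likelihood ratio test and 2.83e-08 by DESeq2). The adjusted p was 0.0544 without SE replicate 1 of 36 h, 0.0615 without SE replicate 2 of 36 h, 0.0978 without SE replicate 1 of 120 h and 0.0711 without SE replicate 2 of 120 h. The log2 fold change in these 4 fits was -0.95, -1.03, -0.95 and -1.02. The call was also lost with the replicate block (adjusted p = 0.0956). Without the 3 libraries high in choroid plexus transcripts, a fit that leaves 1 SE mouse at 36 h, the log2 fold change was -0.96.

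SE at 36 h over control gave a log2 fold change of 0.78 ± 0.12 for Col27a1, with an adjusted p of 0.150 by the quasi-likelihood test, 6.17e-04 by the likelihood ratio test and 0.00148 by DESeq2. With SE replicate 3, low in choroid plexus transcripts, as the only SE library, it was 0.61. At 120 h the log2 fold change over control was -0.25 ± 0.13 (adjusted p = 0.572), although no SE library overlapped the controls. At 1 h Col27a1 had 11.1, 10.5 and 9.93 CPM in SE mice, against 5.83 and 8.68 CPM in controls, without overlap (0.53 ± 0.23, adjusted p = 0.999). At 8 h it had 6.70 and 7.37 CPM in SE mice, against 6.97, 10.1 and 9.97 CPM in controls, with overlap (-0.35 ± 0.27, adjusted p = 0.681).

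The SE effect itself was compared between times in a fit of all 19 libraries. None of 43 members passed for 8 h minus 1 h, where 0.149% of all genes passed, and none for 36 h minus 8 h, where 0.144% did. At an unadjusted p under 0.05 there were 2 members for 8 h minus 1 h, where 12.3% of all genes were, and 5 for 36 h minus 8 h, where 14.1% were. The likelihood ratio test and DESeq2 each called 0 members for 8 h minus 1 h, where they called 0.735% and 1.36% of all genes, and 1 for 36 h minus 8 h (Col27a1, higher), where they called 0.666% and 1.09% of all genes higher. For Col27a1 the difference was -0.87 ± 0.28 for 8 h minus 1 h (adjusted p = 0.224) and 1.10 ± 0.27 for 36 h minus 8 h (adjusted p = 0.0984). Without control replicate 1 of 8 h, the library of that time with another name prefix, the adjusted p was 0.0285 and 0.00403. In these fits 6.80% and 11.4% of all genes passed.

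Col1a1 and Col1a2 encode the chains of collagen I, the main fibrillar collagen of the meninges and vessel adventitia. Col1a1 had 28.5, 18.3 and 19.5 CPM in SE mice at 36 h, against 13.8, 9.25 and 5.95 CPM in controls. All 3 SE mice lay above all 3 controls, with a log2 fold change of 1.21 ± 0.28 (adjusted p = 0.338, 0.0123 by the likelihood ratio test and 0.00284 by DESeq2). At 120 h it had 8.05, 8.58 and 8.93 CPM in SE mice, below every SE library of 36 h and inside the range of the controls. The difference of SE at 120 h over SE at 36 h was -1.39 ± 0.27 (adjusted p = 0.119, 7.90e-04 by the likelihood ratio test and 7.97e-05 by DESeq2). At 1 h Col1a1 had 12.1, 15.4 and 13.9 CPM in SE mice, against 8.90 and 13.6 CPM in controls, and at 8 h 16.2 and 14.5 CPM in SE mice, against 11.0, 16.6 and 18.4 CPM in controls, with overlap at both times.

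Col1a2 was the member with the smallest p at 1 h. It had 26.3, 26.3 and 30.3 CPM in SE mice, against 16.7 and 19.8 CPM in controls, and SE libraries were higher also within each name prefix. The log2 fold change was 0.59 ± 0.16 (adjusted p = 0.841 by edgeR's quasi-likelihood test), and 0.60 ± 0.17 with the prefix as a covariate. At 8 h the groups overlapped, at 25.4 and 19.7 CPM in SE mice, against 21.2, 20.6 and 14.7 CPM in controls. At 36 h Col1a2 had 45.7, 26.4 and 18.9 CPM in SE mice, against 22.6, 11.9 and 11.2 CPM in controls, so that the groups overlapped (1.01 ± 0.34, adjusted p = 0.502). At 120 h it had 16.1, 13.7 and 20.9 CPM in SE mice. Col3a1, the collagen of fine reticular fibrils, had 22.7, 10.5 and 8.58 CPM at 36 h and 4.88, 3.40 and 4.01 CPM at 120 h in SE mice, against 11.9, 3.65 and 2.95 CPM in controls. All SE mice of 120 h lay below all SE mice of 36 h (-1.79 ± 0.52, adjusted p = 0.320). Summed over the 11 fibrillar genes, SE mice had 236, 185 and 186 CPM at 36 h and 141, 145 and 140.3 CPM at 120 h, against 172, 140.0 and 141 CPM in controls.

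Fibroblast markers are given beside these genes, and their part was not tested. The 16 markers of meningeal and perivascular fibroblasts summed to 643, 534 and 268 CPM in SE mice at 36 h and 206, 158 and 549 CPM in SE mice at 120 h, against 288, 213 and 138 CPM in controls. At 36 h, 16 of 16 had log2 fold changes above 0, against 51.7% of all genes, with a median of 0.73 and 0 past the test. For SE at 120 h over SE at 36 h, 0 of 16 lay above 0, against 48.7% of all genes, with a median of -0.68. None of the 16 was at 0 counts in any library. Much of the sum came from Igf2, with 253, 212 and 56.9 CPM in SE mice at 36 h and 45.2, 36.0 and 262 CPM in SE mice at 120 h, against 88.9, 41.4 and 37.1 CPM in controls. Igfbp2 had 128, 98.3 and 32.4 CPM at 36 h and 18.7, 18.9 and 106 CPM at 120 h in SE mice, against 29.3, 19.9 and 14.5 CPM in controls. Both were highest in the 3 libraries high in choroid plexus transcripts. The other 14 markers, a set formed after these values were seen, summed to 262, 223 and 179 CPM at 36 h and 143, 103 and 181 CPM at 120 h in SE mice, against 170.2, 152 and 86.6 CPM in controls, and were again highest in those 3 libraries. The marker sums and the collagens did not run together in every library. SE replicate 3 of 120 h had the highest fibroblast sum of the SE mice of that time, and 8.93 CPM of Col1a1 beside 8.05 and 8.58 CPM in the other SE mice. Its fibrillar sum, 140.3 CPM, was the lowest of these mice. SE replicate 3 of 36 h had a fibrillar sum of 186 CPM, above all controls. Its sum of the 16 markers lay within the control range, whereas its sum of the 14 markers, 179 CPM, lay above all controls.

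**Figure D3:**
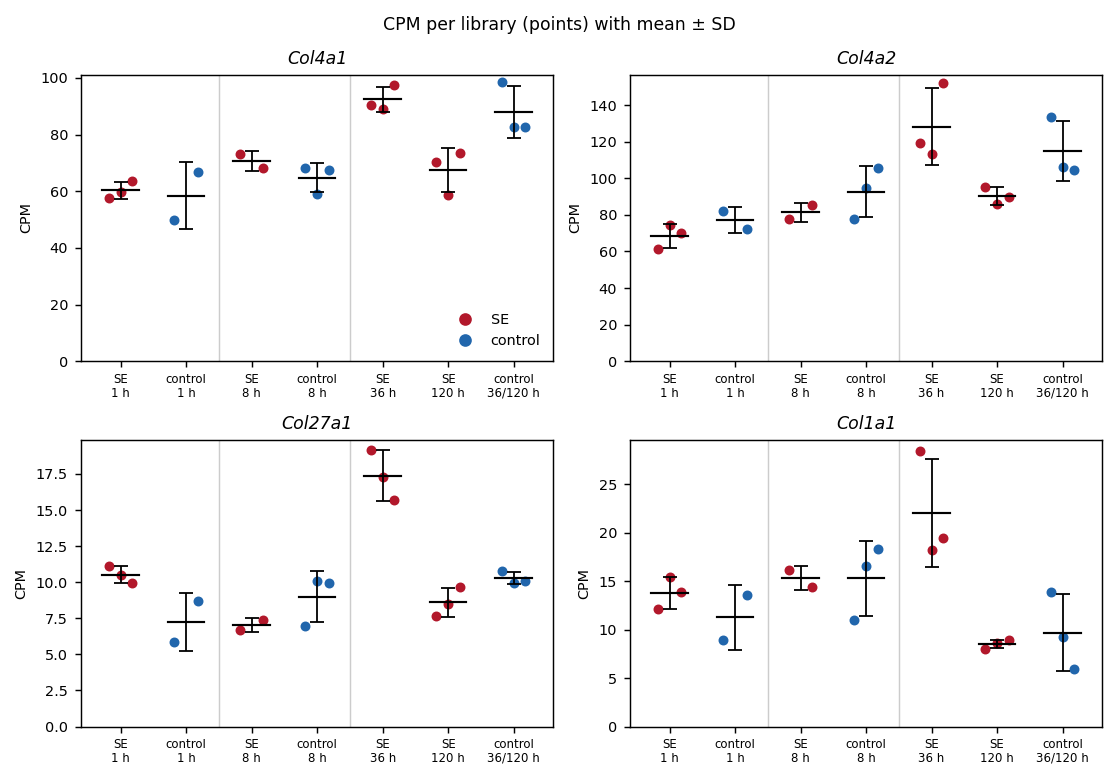
CPM of Col4a1, Col4a2, Col27a1 and Col1a1 in the 19 libraries, with 1 point per library and the mean ± SD per group. Col27a1 lies at 15.7 to 19.2 CPM in SE at 36 h and at 7.67 to 9.65 CPM in SE at 120 h, and Col4a1 and Col4a2 lie lower in SE at 120 h than in the controls that 36 h and 120 h share.

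Collagens V and XI nucleate fibrils and set their width. Col11a1 had 20.5, 24.7 and 19.5 CPM in SE mice at 120 h, against 27.8, 24.0 and 28.7 CPM in controls, with overlap (-0.30 ± 0.11, adjusted p = 0.462). In SE mice at 36 h it had 28, 27.4 and 29.6 CPM, above every SE mouse at 120 h (SE at 120 h over SE at 36 h, -0.40 ± 0.11, adjusted p = 0.291). Col11a2 had 44.2, 42.6 and 41.6 CPM at 36 h and 36.8, 45.7 and 33.5 CPM at 120 h in SE mice, against 38.8, 31.1 and 47.5 CPM in controls. The SE values of Col11a2 all lay within the control range. Col5a1 had 20.4, 19.6 and 28.2 CPM at 36 h and 22.0, 19.2 and 20.9 CPM at 120 h in SE mice, against 19.6, 21.8 and 13.5 CPM in controls, again with overlap.

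At 1 h and 8 h the groups overlapped for each of these 3 genes. Col11a1 had 21.4, 26.8 and 19.4 CPM in SE mice at 1 h, against 17.9 and 23.2 CPM in controls, and 17.4 and 15.0 CPM in SE mice at 8 h, against 18.5, 16.2 and 15.7 CPM in controls. Col11a2 had 17.3, 25.1 and 24.5 CPM in SE mice at 1 h, against 37.3 and 21.1 CPM in controls, and 23.0 and 27.8 CPM in SE mice at 8 h, against 26.7, 28.1 and 31.7 CPM in controls. For Col5a1 the values were 17.9, 22.4 and 21.9 CPM in SE mice at 1 h, against 17.8 and 17.9 CPM in controls, and 32.3 and 28.4 CPM in SE mice at 8 h, against 25.3, 27.2 and 30.8 CPM in controls.

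Col5a3 was the member with the smallest p at 8 h. It had 6.11 and 8.6 CPM in SE mice, against 4.86, 5.12 and 3.22 CPM in controls, without overlap (0.74 ± 0.33, adjusted p = 0.527 by edgeR's quasi-likelihood test). At 1 h it had 2.01, 3.16 and 3.76 CPM in SE mice, against 3.51 and 3.17 CPM in controls, with overlap. At 36 h it had 8.54, 6.73 and 7.15 CPM in SE mice and at 120 h 5.92, 5.93 and 5.98 CPM, against 6.36, 5.73 and 6.15 CPM in controls. The SE mice of 36 h thus lay above all controls and above all SE mice of 120 h. Col5a2 ranged over 6.58 to 20.1 CPM and the cartilage collagen Col2a1 over 0.750 to 1.87 CPM in the 19 libraries. Col24a1 ranged over 0 to 4.22 CPM, with 0 counts in SE replicate 1 of 1 h, where a count of 0 allows up to 0.177 CPM. Its log2 fold change at 36 h, -1.37 ± 0.65, was the lowest of the 42 members tested (adjusted p = 0.662).

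Among the other collagens, Col8a1, a short-chain collagen of endothelial and epithelial layers, had the highest log2 fold change at 36 h. It had 15.5, 21.6 and 1.94 CPM in SE mice at 36 h, against 0.914, 1.30 and 0.700 CPM in controls. The groups did not overlap, with a log2 fold change of 3.78 ± 0.75 (adjusted p = 0.302, 1.56e-04 by the likelihood ratio test and 0.0135 by DESeq2), which was 1.02 with SE replicate 3 as the only SE library. At 120 h it had 0.548, 0.207 and 23.6 CPM in SE mice, high only in the library with high choroid plexus transcripts. The log2 fold change of 3.07 ± 1.42 (adjusted p = 0.538) turned to -1.39 without that library. At 1 h Col8a1 had 49.8, 37.6 and 38.3 CPM in SE mice, against 30.7 and 29.6 CPM in controls, without overlap (0.47 ± 0.16, adjusted p = 0.999), beside the choroid plexus markers that were higher in SE mice at that time. At 8 h it had 28.1 and 22.6 CPM in SE mice, against 7.6, 25.0 and 4.98 CPM in controls, where the controls with low choroid plexus transcripts were the low ones. Its partner Col8a2 had 23.7, 26.0 and 1.54 CPM at 36 h and 2.41, 4.27 and 25.1 CPM at 120 h in SE mice, against 3.53, 3.58 and 3.5 CPM in controls, with the same libraries high.

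Col9a3 had 102, 90.4 and 15.0 CPM in SE mice at 36 h and 18, 36.7 and 95.7 CPM in SE mice at 120 h, against 18.2, 14.5 and 25.2 CPM in controls. The 3 highest of these values were those of the libraries high in choroid plexus transcripts. Its log2 fold change was 1.85 ± 0.55 at 36 h (adjusted p = 0.423) and -0.37 with SE replicate 3 as the only SE library, and 1.38 ± 0.52 at 120 h (adjusted p = 0.466). At 8 h it had 63.2 and 59.1 CPM in SE mice, against 19, 58.8 and 28.9 CPM in controls (0.77 ± 0.39, adjusted p = 0.568). The 8-h groups did not overlap, and the control high in choroid plexus transcripts was close to the SE mice. At 1 h they overlapped, at 45.0, 41.5 and 64.0 CPM in SE mice, against 59.2 and 29.2 CPM in controls. Col17a1, a transmembrane collagen that anchors epithelia, had 2.53, 1.73 and 0.572 CPM at 36 h and 0.548, 0.415 and 3.35 CPM at 120 h in SE mice, against 0.348, 0.521 and 0.050 CPM in controls.

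**Figure D4:**
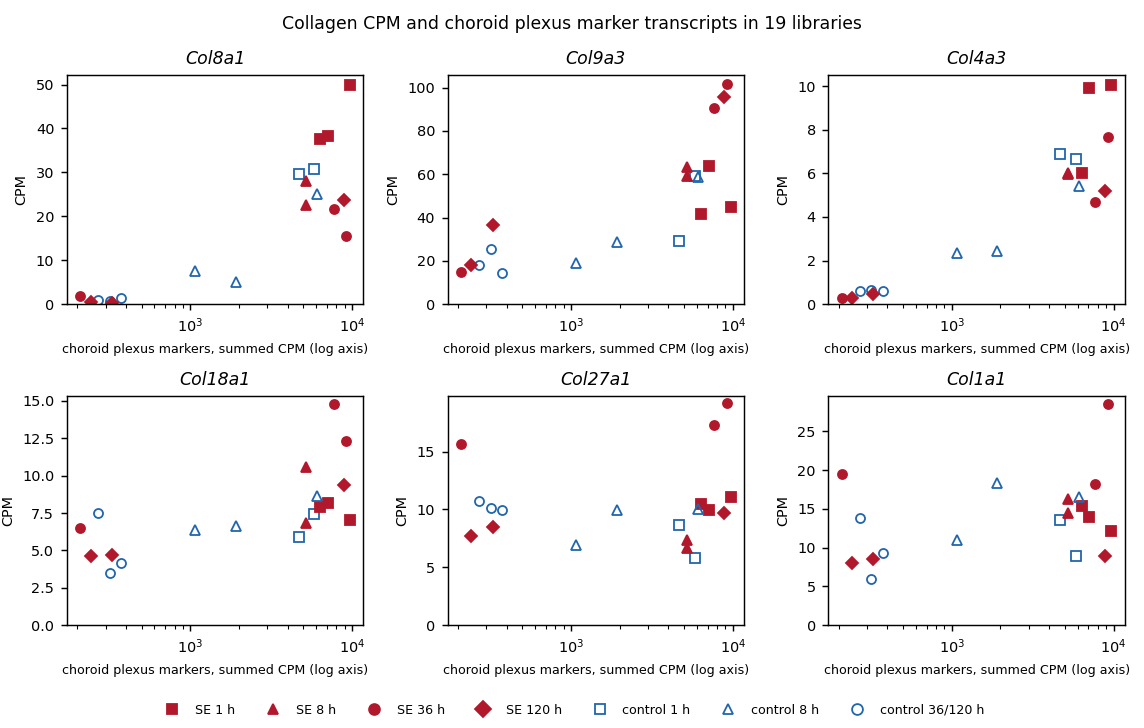
CPM of Col8a1, Col9a3, Col4a3, Col18a1, Col27a1 and Col1a1 against the summed CPM of 20 choroid plexus markers (log axis), with 1 point per library. Among the libraries of 36 h and 120 h, Col8a1, Col9a3 and Col4a3 are highest in the 3 with 7697 CPM of the markers or more, whereas Col27a1 is highest in the 3 SE libraries of 36 h, of which 1 has 209.8 CPM.

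Col9a2 and Col16a1 were higher at 36 h in all 3 SE mice, the one with low choroid plexus transcripts included. Col9a2, another collagen IX chain, had 8.81, 6.13 and 8.81 CPM in SE mice at 36 h, against 5.01, 4.30 and 4.25 CPM in controls, and 4.16, 6.88 and 6.17 CPM in SE mice at 120 h. The 36-h groups did not overlap, with a log2 fold change of 0.83 ± 0.19 (adjusted p = 0.338, and 0.0468 by the likelihood ratio test). Its early groups overlapped, at 3.19, 3.63 and 3.47 CPM in SE mice at 1 h, against 4.58 and 2.55 CPM in controls, and 6.58 and 4.23 CPM in SE mice at 8 h, against 4.43, 7.08 and 5.37 CPM in controls. Col16a1, which associates with fibrils, had 21.9, 20.5 and 30.1 CPM in SE mice at 36 h, against 19, 15.9 and 14.7 CPM in controls, and 17.0, 18.7 and 17.3 CPM in SE mice at 120 h. Its log2 fold change at 36 h was 0.56 ± 0.16 (adjusted p = 0.409), and 0.86 with SE replicate 3 as the only SE library, a value of 1 mouse.

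The collagen VI chains spread widely between mice of 1 group at the later times. Col6a1 had 63.4, 63.8 and 72.9 CPM in SE mice at 36 h and 83.1, 14.8 and 56.9 CPM in SE mice at 120 h, against 47.8, 75.6 and 20.3 CPM in controls. Col6a2, a chain of the same trimer, had 16.2, 13.6 and 16.9 CPM at 36 h and 21.0, 7.83 and 17.1 CPM at 120 h in SE mice, against 11.5, 21.0 and 6.70 CPM in controls. Both were lowest in SE replicate 2 of 120 h and control replicate 3. Col6a3, the long chain of the trimer, had 8.70, 16.1 and 4.92 CPM at 36 h and 4.60, 21.4 and 4.93 CPM at 120 h in SE mice, against 4.05, 4.17 and 17.9 CPM in controls. It was highest in those same 2 libraries. Col6a4, an alternative chain, had 3.14, 3.93 and 1.54 CPM at 36 h and 0.603, 13.1 and 0.591 CPM at 120 h in SE mice, against 2.09, 0.717 and 0.80 CPM in controls, and was high in SE replicate 2 of 120 h but not in control replicate 3. Fibroblast markers, given above, had their lowest sums of the later times in these 2 libraries. The 10 glial markers had their highest sums there, at 12352 CPM in SE replicate 2 of 120 h and 11822 CPM in control replicate 3, where the other 7 libraries of the later times had 7659 to 10602 CPM. Wfs1, a marker of CA1 neurons chosen after its values were seen, had 167 and 168 CPM in these 2 libraries and 68.9 to 137 CPM in the other 7. The 10 markers of hippocampal neurons did not set these 2 libraries apart together. Their sum was 5535 CPM in SE replicate 2 of 120 h, the lowest of the later times, and 6555 CPM in control replicate 3, the highest. The part of these cell types and of hippocampal subfields was not tested.

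At the early times 2 collagen VI chains were among the members with the smallest p. Col6a3 had 11.0, 5.80 and 9.64 CPM in SE mice at 1 h, against 4.39 and 4.78 CPM in controls, without overlap (0.94 ± 0.31, adjusted p = 0.976). Col6a2 had 12.3 and 12.5 CPM in SE mice at 8 h, against 13.4, 20.03 and 18.9 CPM in controls, again without overlap (-0.50 ± 0.24, adjusted p = 0.558). The other early groups of these chains overlapped. Col6a3 had 1.29 and 4.88 CPM in SE mice at 8 h, against 3.38, 5.40 and 2.64 CPM in controls, and Col6a2 had 10.8, 13.1 and 12.5 CPM in SE mice at 1 h, against 9.78 and 12.5 CPM in controls. Col6a1 had 30.0, 37.0 and 42.4 CPM in SE mice at 1 h, against 28 and 37.9 CPM in controls, and 43.5 and 38.2 CPM in SE mice at 8 h, against 35.2, 32.1 and 50.3 CPM in controls. Col6a5 and Col6a6 were low throughout, at 1.07 to 4.08 and 0 to 0.999 CPM over the 19 libraries.

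**Figure D5:**
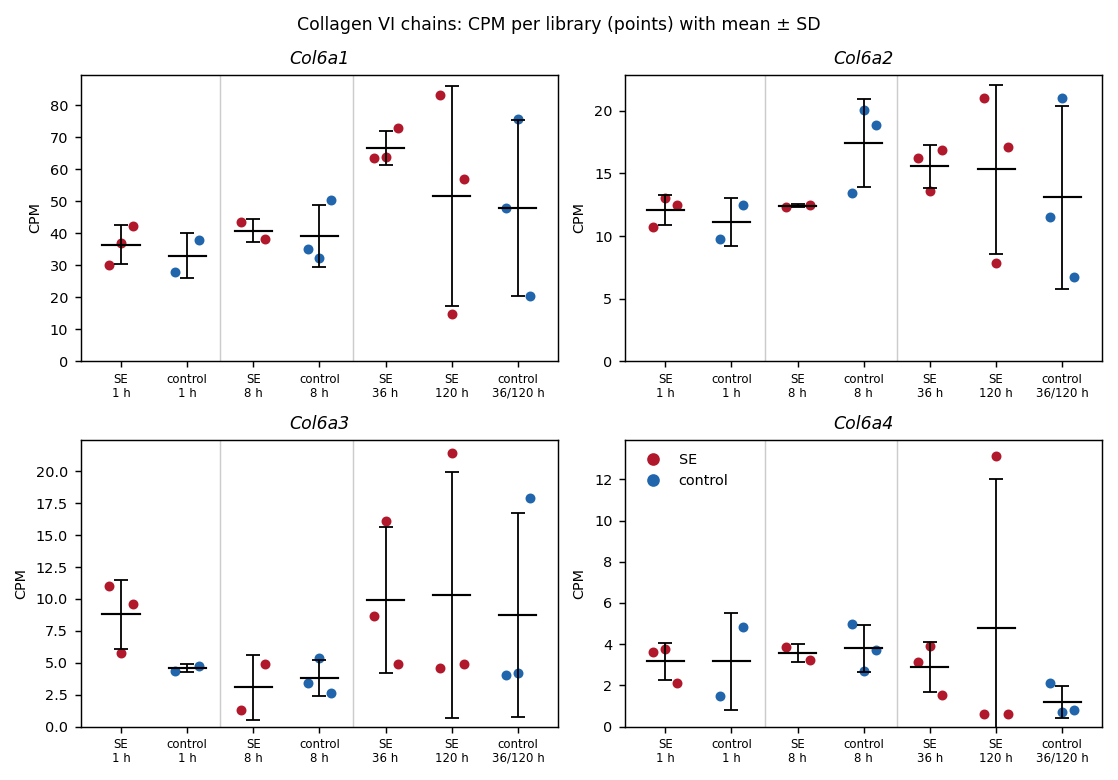
CPM of Col6a1, Col6a2, Col6a3 and Col6a4 in the 19 libraries, with 1 point per library and the mean ± SD per group; a bar that would pass below 0 is cut there. The SE group of 120 h and the control group of 36 h and 120 h each hold 1 library with low Col6a1 and Col6a2 and high Col6a3.

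The transmembrane collagens Col25a1 and Col23a1 overlapped their controls at every time. Col25a1, made by neurons and known to bind amyloid beta, had 55.8, 86.7 and 57.3 CPM at 36 h and 72.1, 84.1 and 62.3 CPM at 120 h in SE mice, against 69.8, 74.0 and 70.5 CPM in controls. At 8 h it had 83.3 and 77.3 CPM in SE mice, against 94.2, 58.1 and 62.1 CPM in controls, and the highest value was that of control replicate 1, which carries another name prefix than the other 4 libraries. The log2 fold change at 8 h was 0.15 ± 0.22 (adjusted p = 0.827), and 0.40 ± 0.12 without that control (adjusted p = 0.0436), a fit in which 13.4% of all genes passed. At 1 h it had 94.9, 82.9 and 105 CPM in SE mice, against 88.1 and 91.1 CPM in controls. Col23a1 had 16.0, 26.5 and 19.7 CPM at 36 h and 21.3, 16.7 and 17.7 CPM at 120 h in SE mice, against 13.2, 21.5 and 9.999 CPM in controls, with log2 fold changes of 0.50 at 36 h and 0.33 at 120 h. At 1 h it had 20.3, 18 and 21.6 CPM in SE mice, against 21.1 and 16.9 CPM in controls, and at 8 h 22.8 and 15.7 CPM in SE mice, against 20.5, 19.2 and 24.9 CPM in controls.

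The remaining members are given by their ranges over the 19 libraries. Col19a1, known from hippocampal interneurons, ranged over 10.4 to 23.8 CPM, Col12a1 over 4.81 to 15.1 CPM and Col20a1 over 4.90 to 11.8 CPM, with log2 fold changes at 36 h of -0.11, -0.10 and 0.01. Col7a1, the collagen of anchoring fibrils, ranged over 2.36 to 8.22 CPM, Col22a1 over 2.2 to 7.04 CPM and Col26a1 over 2.46 to 5.67 CPM. Col26a1 was lower in every SE mouse of 120 h than in any SE mouse of 36 h (-0.43 ± 0.16, adjusted p = 0.460). Col13a1, Col14a1, Col9a1, Col28a1 and Col10a1 had at most 3.17 CPM in any library. Because of low counts, Col10a1 was tested in no comparison, Col6a6 not at 1 h, 8 h and 120 h, Col28a1 not at 8 h, 36 h and 120 h, Col9a1 not at 8 h and Col17a1 not at 120 h.

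Genes that make, mature, degrade or bind collagen were examined beside the collagens. At 36 h, 0 of 21 biosynthesis genes passed and 16 lay above 0 (median 0.09), where 51.7% of all genes lay above 0. Serpinh1, the collagen chaperone HSP47, had 46.1, 35.2 and 23.0 CPM in SE mice, against 22.7, 19.2 and 17.4 CPM in controls (0.84 ± 0.22, adjusted p = 0.385). Of 14 maturation genes 0 passed and 9 lay above 0. Pcolce, which enhances removal of the procollagen tail, and the cross-linking enzyme Lox had the smallest p, with log2 fold changes of 1.96 ± 0.47 (adjusted p = 0.369) and 1.73 ± 0.68 (adjusted p = 0.568). Pcolce had 32.5, 26.2 and 7.95 CPM in SE mice, against 8.66, 4.30 and 4.25 CPM in controls. Lox had 1.60, 1.33 and 0.515 CPM, against 0.697, 0.0652 and 0.200 CPM. In both, the SE mouse low in choroid plexus transcripts lay within the control range. At 120 h Pcolce had 5.81, 3.90 and 26.7 CPM in SE mice, highest in the library high in those transcripts. Of 10 degradation genes 0 passed and 8 lay above 0. Timp1, an inhibitor of matrix metalloproteinases, had 3.69, 2.26 and 4.80 CPM in SE mice, against 0.348, 0 and 0.300 CPM in controls (3.92 ± 0.57, adjusted p = 0.110).

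Collagen receptors, further basement membrane genes such as laminins and nidogens, and TGF-beta signalling, a pathway known to induce collagen genes, had 0 genes past the test at 36 h. There 8 of 9 receptors, 13 of 15 further basement membrane genes and 8 of 15 TGF-beta genes lay above 0, against 51.7% of all genes. Ltbp3, which binds latent TGF-beta, had the smallest p of these (0.76 ± 0.13, adjusted p = 0.169). At 1 h, 8 h and 120 h, 0 genes of the 6 lists passed against control.

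Between SE at 120 h and SE at 36 h, 1 gene of the 6 lists passed. Mmp14, a membrane-bound collagenase, had 11.4, 12.0 and 14.1 CPM in SE mice at 120 h and 25.1, 21.1 and 20.8 CPM in SE mice at 36 h, with 21.1, 20.4 and 22.1 CPM in controls. It fell in SE at 120 h against SE at 36 h (-0.85 ± 0.12, adjusted p = 0.0217), a call lost in 8 of 18 alternatives (largest adjusted p = 0.147, without SE replicate 1 of 120 h). Its log2 fold change against control at 120 h was -0.76 ± 0.11 (adjusted p = 0.0864). Timp1 was at -3.24 ± 0.52 in SE at 120 h against SE at 36 h (adjusted p = 0.0523). Above 0 lay 6 of 21 biosynthesis, 5 of 14 maturation and 5 of 10 degradation genes. For receptors it was 1 of 9, for further basement membrane genes 3 of 15 and for TGF-beta genes 6 of 15. Over all genes, 48.7% lay above 0 in this comparison.

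The genes with the pattern most like that of Col4a1 were ranked by Pearson's r of log2 CPM over the 19 libraries among 17414 genes. They were Acss2 (r = 0.871), Cldn5 (0.868), Pomt1 (0.843), Mcub (0.841) and Nsmf (0.840). These values are a description over libraries that share prefix and time.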

How the data were processed

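The mRNA libraries were sequenced and aligned by the authors, and the deposited values are whole-number read counts per Ensembl gene, not normalized (HISAT2 2.1.0, HTSeq and NCBIM37 are named in the submitters' processing notes). The deposited small RNA libraries (16) were not used here. Groups came from the sample labels. The members and gene lists were chosen with earlier results of these data known. Identifiers were matched to symbols for 33068 of 43629 genes, and 1 list gene was not found.

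Genes were kept by filterByExpr (minimum count 10) per fit, scaled by TMM and tested over the whole table with edgeR 4.0.16's quasi-likelihood test in R 4.3.3 (limma 3.58.1), with Benjamini-Hochberg adjustment at 0.05. SE was set against control at each time. SE at 120 h against SE at 36 h was a contrast among 9 libraries, and differences between times were contrasts in a fit of all 19. Alternatives were the likelihood ratio test, DESeq2 1.42.0, other scaling, no filter, all libraries in 1 fit, a replicate block, covariates for sex, name prefix and choroid plexus markers, and each library left out. The test was checked on simulated data. No 2 libraries of a group held identical counts.

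Values of every library are given for the 4 members of each class with the highest mean CPM, the 3 with the smallest p in each comparison, Col4a1, Col4a2 and members past the threshold. Col3a1, Col4a3, Col4a4, Col4a6, Col6a4, Col8a2, Col16a1, Col17a1, Col24a1, Col26a1, Igf2, Igfbp2 and Wfs1 were chosen after their values were seen. Depth was 8503816 to 28465548 counts per library, so that low members, such as Col10a1, are limited by counting error.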

Additional observations from a re-analysis of the deposited data

Results flagged for a closer look

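Col27a1 is listed because its level after SE differed between 2 times by a test of the difference itself. SE at 120 h over SE at 36 h gave a log2 fold change of -1.03, with 8.59 ± 1.00 CPM in SE mice at 120 h and 17.4 ± 1.75 CPM in SE mice at 36 h (SD, n = 3 each), and all 3 mice of 120 h below all 3 mice of 36 h. The adjusted p was 0.0123 by edgeR's quasi-likelihood test. It was 0.0956 with the replicate block. In the 4 fits without SE replicate 1 or 2 of 36 h or of 120 h it ranged over 0.0544 to 0.0978. The call was thus lost in each of these fits.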

How the results depend on the processing

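Over all alternatives, 149 counts and medians stayed within their limits and 38 moved, while among single genes 451 kept their direction and side of the threshold, 26 passed it newly, 24 no longer passed it and 13 changed sign. Counts of collagens past the threshold moved with the test, the filter and single libraries. At 36 h it was 5 by the likelihood ratio test, 3 by DESeq2 and 6 with no filter, all higher. With no filter, 130 of 24709 genes tested passed higher. At 8 h it was 3 with no filter, all higher, where 90 of 24356 genes tested passed higher. With the name prefix as a covariate it was 1 at 8 h, higher, where 934 of 15610 genes passed higher and 1177 lower. At 120 h it was 1 by DESeq2. SE at 120 h against SE at 36 h had 4 by the likelihood ratio test, DESeq2 and no filter each. With no filter the 4 were lower, as were 40 of 25567 genes tested. For 36 h minus 8 h it was 1 by the likelihood ratio test, 1 by DESeq2 and 8 with no filter, all higher. With no filter, 584 of 27279 genes tested passed higher for this difference. With 1 library left out, counts ranged over 0 to 1 at 8 h, 0 to 11 at 36 h (11 without SE replicate 3), 0 to 2 for SE at 120 h against SE at 36 h, 0 to 1 for 8 h minus 1 h and 0 to 3 for 36 h minus 8 h. The count for SE at 120 h against SE at 36 h was 0 without SE replicate 1 or 2 of 36 h or of 120 h. It was 2, both lower, without control replicate 3, where 11 of 16485 genes passed lower. Both single-library counts for the differences between times, 1 and 3, arose without control replicate 1 of 8 h, where 6.80% and 11.4% of all genes passed. At 8 h the count of 1 arose without that control, where 13.4% of all genes passed. It also arose without control replicate 2, where 14 of 15533 genes passed higher.

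With the mean log2 CPM of choroid plexus markers in the model, median log2 fold changes were 0.26 at 1 h, 0.26 at 36 h and -0.034 at 120 h. Without the SE libraries high in these transcripts the 36-h median was 0.30, and without the controls low in them the 8-h median was -0.028. Without all 3 high libraries the median of SE at 120 h against SE at 36 h was -0.28. Each of these 3 fits leaves 1 library in a group. Leaving out 1 library gave medians of 0.060 to 0.21 at 1 h, the highest without control replicate 2, and of -0.029 (without SE replicate 3) to 0.16 (without control replicate 1) at 120 h.

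Signs changed as follows, with the cause not tested. Col4a1 at 1 h ranged from -0.16, without control replicate 1, to 0.27 with 1 library left out. At 36 h with sex as a covariate, Col4a1 was -0.068 and Col4a2 -0.036. Col1a1 at 8 h, close to 0, was 0.012 with no filter, 0.0027 with all libraries in 1 fit and 0.16 with the replicate block, and ranged over -0.21 to 0.14 with 1 library left out. Col1a1 at 120 h ranged over -0.43 to 0.18, the last without control replicate 1. Col8a1 at 120 h was -1.30 with choroid plexus markers in the model and ranged over -1.39, without SE replicate 3, to 3.67 with 1 library left out. At 8 h it was -0.011 without the controls low in choroid plexus transcripts.

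Own-number correlations of deviations from the group means ranged between -0.24 and 0.21, and those of different numbers between -0.27 and 0.25. Groups are so small that these correlations depend on each other, so they showed no pairing by replicate number but cannot exclude it. With the replicate block the count for SE at 120 h against SE at 36 h was 0, with an adjusted p of 0.0956 for Col27a1, and no other count moved. The name prefix could be a covariate at 1 h and 8 h only, since all libraries of 36 h and 120 h share 1 prefix. Depth limited the lowest members, since Col10a1 had 0 counts in 5 of the 19 libraries.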
